A study of Mus musculus with 6 samples.

Results

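The postsynaptic scaffold genes of the Dlg, Shank and Homer families were examined in brain RNA of wild-type (WT) mice extracted with either of 2 methods. The set comprised Dlg1, Dlg2, Dlg3 and Dlg4, then Shank1, Shank2 and Shank3, and Homer1, Homer2 and Homer3. Rows were matched by gene symbol, 1 row per Ensembl gene, for members chosen with earlier results of these data known. All 10 were found among 22584 genes and were among the 16325 that passed the filter on low counts. For 3 libraries RNA was purified with the AllPrep DNA/RNA/Protein Mini Kit, whose spin columns part DNA, RNA and protein of a single lysate. For 3 control (Ctrl) libraries TRIzol was used, which extracts RNA with phenol and guanidine. Both groups carried the same genotype and were amplified by T7 in vitro transcription, where a phage polymerase makes RNA from cDNA. The labels used here give no strain, age or dissection, nor whether each library is a different animal, so the p-values reflect only library-to-library spread, which may be technical.

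At excitatory synapses these 3 families form a layered protein scaffold beneath the membrane of the dendritic spine. Dlg proteins (membrane-associated guanylate kinases) lie closest to the membrane and hold NMDA receptors, AMPA receptor auxiliary subunits and adhesion molecules through PDZ domains. Dlgap proteins link them to Shank proteins, which lie deeper and carry ankyrin repeats, a PDZ domain and a SAM domain. Homer proteins form multimers, bind Shank and tie it to group I metabotropic glutamate receptors and to inositol trisphosphate receptors. Dlg4 is the major scaffold of mature excitatory synapses, and Shank3 is known for its link to autism and to corticostriatal synapses. Homer1 also gives a short, activity-induced isoform that cannot form multimers, and counts per gene do not separate it from the long forms.

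The sequences before the annotated starts are shown for Dlg1 and Dlg2, whose ratio separated the methods in every library, and for Homer1 and Homer2, whose ratio varied widely among TRIzol libraries. RefSeq windows on GRCm38.p6, from 250 bases before to 50 bases after a start (window length 300 bases), were matched for 8 of 10 members by symbol, 18 windows in all; Shank1 and Shank2 were not matched. For each gene the most upstream listed start is printed, 5′ to 3′ on the gene's strand. They are chr16:31663193-31663492 on the + strand for Dlg1, chr7:91090536-91090835 on the + strand for Dlg2, chr13:93303507-93303806 on the + strand for Homer1 and chr7:81706876-81707175 on the - strand for Homer2. Capitals mark, on either strand, the GC box GGGCGG and the cyclic AMP response element core TGACG; the TATA box TATAAA was searched too, and matches to one motif that overlap run together.
Dlg1: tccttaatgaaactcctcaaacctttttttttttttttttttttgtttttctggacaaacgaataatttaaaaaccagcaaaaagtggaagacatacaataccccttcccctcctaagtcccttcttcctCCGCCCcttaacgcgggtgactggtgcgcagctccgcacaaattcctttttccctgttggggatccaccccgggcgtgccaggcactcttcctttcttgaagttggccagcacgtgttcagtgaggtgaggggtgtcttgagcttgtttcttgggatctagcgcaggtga
Dlg2: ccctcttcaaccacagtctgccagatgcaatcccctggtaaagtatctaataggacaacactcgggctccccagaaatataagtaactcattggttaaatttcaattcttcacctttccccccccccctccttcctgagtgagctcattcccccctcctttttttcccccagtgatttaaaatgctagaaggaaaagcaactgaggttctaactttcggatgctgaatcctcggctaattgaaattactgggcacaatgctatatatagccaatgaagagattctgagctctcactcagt
Homer1: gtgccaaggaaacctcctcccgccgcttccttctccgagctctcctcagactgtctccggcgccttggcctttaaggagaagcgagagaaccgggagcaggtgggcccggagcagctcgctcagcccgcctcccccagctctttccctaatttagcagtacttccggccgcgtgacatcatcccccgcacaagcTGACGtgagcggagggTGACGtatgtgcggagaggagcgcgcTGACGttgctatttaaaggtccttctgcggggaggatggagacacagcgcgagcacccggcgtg
Homer2: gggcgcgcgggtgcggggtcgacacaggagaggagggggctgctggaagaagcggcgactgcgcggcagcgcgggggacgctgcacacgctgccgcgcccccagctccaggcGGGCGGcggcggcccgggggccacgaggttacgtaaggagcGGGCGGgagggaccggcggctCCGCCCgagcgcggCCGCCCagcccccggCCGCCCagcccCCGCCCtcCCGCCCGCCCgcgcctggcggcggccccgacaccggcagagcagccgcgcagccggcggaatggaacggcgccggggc

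The 4 windows differed in composition. The Homer2 window had a GC content of 82.3% with 49 CpG dinucleotides and held 8 GC boxes. The Homer1 window had a GC content of 63.0% with 26 CpG dinucleotides and held 3 copies of the cyclic AMP response element core and no GC box. The Dlg1 window held 1 GC box at a GC content of 47.3%. The Dlg2 window had a GC content of 44.7%, 3 CpG dinucleotides and none of the 3 motifs, and it was the first of 3 listed starts. Over all 32851 windows of the table, 35.7% held a GC box, 20.8% the cyclic AMP response element core and 13.6% a TATA box, with a median of 7 CpG dinucleotides. Of the 18 windows of members, 7 held a GC box, 3 the response element core and 3 a TATA box. A match is a description of these letters, and counts per gene do not show which start was used.

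Total counts per library ran from 36395330 to 50937858, and counts of members from 148 for Homer3 in TRIzol replicate 1 to 39397 for Dlg4 in AllPrep replicate 3. Levels are given as CPM, the count scaled to the library's total, and fold changes as AllPrep over TRIzol on the log2 scale from edgeR's quasi-likelihood test with TMM scaling and Benjamini-Hochberg adjustment over all tested genes. Neuronal markers were abundant in every library, with the summed level of 8 pan-neuronal genes at 7812 to 8337 CPM in AllPrep and 8222 to 8809 CPM in TRIzol. Among cerebellar markers, Gabra6 stood at 0 to 0.0519 CPM and Pcp2 at 0.055 to 0.311 CPM over the 6 libraries, while Calb1, Itpka and Etv1, which other brain regions also express, stood at 85.1 to 179 CPM. The 6 matched Purkinje markers summed to 246 to 332 CPM in AllPrep and 228 to 241 CPM in TRIzol, with 1 called higher, and the 6 granule cell markers to 114 to 173 CPM in AllPrep and 97.1 to 127 CPM in TRIzol, with 0 called in edgeR. The 8 choroid plexus markers summed to 618 to 1249 CPM in AllPrep and 18.2 to 26.6 CPM in TRIzol, and all 8 passed the test.

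Of the 10 scaffold genes 1 rose in AllPrep, none fell and 9 did not pass the test, while 3.80% of all tested genes passed, 2.52% as higher. The gene that rose was Dlg2. Fold changes were positive for 9 members and negative for Dlg1, and the median log2 fold change of the 10 genes was 0.23, against -0.01 over all tested genes, of which 48.5% were positive. With transcript length and GC trends removed, 3 members were negative (Dlg1, Shank1 and Homer2) and the median of the 10 was 0.080; without AllPrep replicate 3 the median was 0.134. At an unadjusted p below 0.05 stood 3 members, Dlg2, Dlg3 and Dlg4, a share near the 25.8% of all tested genes below that value. In bulk tissue, fewer cells of a type and less RNA per cell cannot be told apart.

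Dlg2, which anchors NMDA receptors and potassium channels and also occurs in axons, was the member that separated the methods most clearly. It had 472, 480 and 499 CPM in AllPrep replicates 1 to 3, against 388, 390 and 365 CPM in TRIzol replicates 1 to 3. Every AllPrep library lay above every TRIzol library, and the spread within each method was small. The means were 484 ± 14.3 CPM in AllPrep and 381 ± 14.0 CPM in TRIzol (SD, n = 3 each), which edgeR fitted as 1.30-fold higher (0.38 on the log2 scale with SE 0.072, adjusted p = 0.0388). The call was lost in edgeR without AllPrep replicates 1, 2 or 3 (adjusted p = 0.0965, 0.122 and 0.109) and without TRIzol replicates 1, 2 or 3 (adjusted p = 0.068, 0.0902 and 0.0821), with log2 fold changes from 0.35 to 0.41. It was also lost with transcript length and GC trends removed (log2 fold change 0.20, adjusted p = 0.18 in edgeR).

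Dlg4, which encodes the most abundant scaffold of the postsynaptic density, had 671, 759 and 773 CPM in AllPrep, against 697, 580 and 579 CPM in TRIzol. AllPrep replicates 2 and 3 were above all TRIzol libraries, while TRIzol replicate 1 was above AllPrep replicate 1. The log2 fold change was 0.28 (SE 0.11, adjusted p = 0.16 in edgeR), with a 95% interval from limma-trend of 0.03 to 0.54. Dlg3, an X-linked paralog prominent in young synapses, had 199, 216 and 238 CPM in AllPrep, against 192, 185 and 196 CPM in TRIzol. Its groups did not overlap either, but the gap between them was narrow and the test did not pass (0.22 on the log2 scale with SE 0.088, adjusted p = 0.165 in edgeR). Over all tested genes, 13.4% had every AllPrep library above every TRIzol library; of the 10 members Dlg2 and Dlg3 did. For no member was every AllPrep library below every TRIzol library, which held for 20.6% of all tested genes.

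Dlg1, the paralog that also serves epithelial polarity and the early trafficking of glutamate receptors, was the only member with a negative value. It had 194, 207 and 184 CPM in AllPrep, against 217, 209 and 186 CPM in TRIzol. The ranges overlapped, and the log2 fold change was -0.029 (SE 0.089, adjusted p = 0.867 in edgeR, 95% interval from limma-trend -0.23 to 0.18). The sign turned to a log2 fold change of 0.0097 without AllPrep replicate 3 and 0.025 without TRIzol replicate 1.

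**Figure D1:**
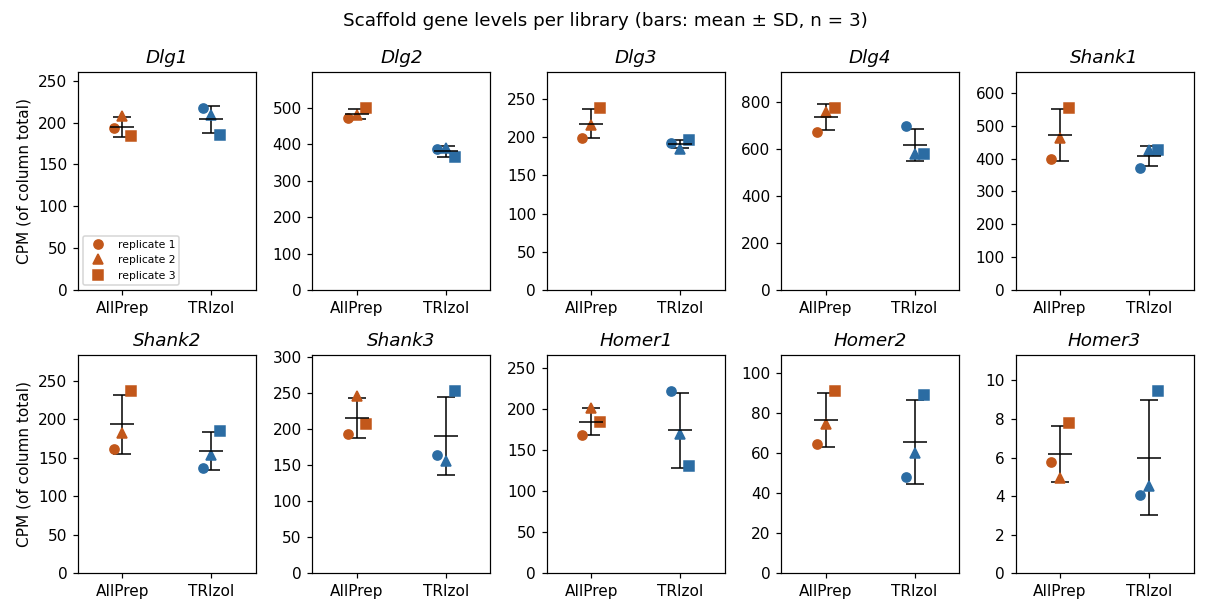
Level of each scaffold gene in every library, in CPM of the column total, with AllPrep on the left of each panel and TRIzol on the right; symbols mark replicates and bars the mean ± SD (n = 3). Dlg2 is the gene whose groups are widest apart relative to their spread, at 472 to 499 CPM in AllPrep and 365 to 390 CPM in TRIzol.

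Shank genes had positive fold changes that did not pass. Shank1, the most abundant of them and enriched at cortical and hippocampal spines, had 398, 463 and 553 CPM in AllPrep, against 373, 425 and 427 CPM in TRIzol. AllPrep replicate 3 was the highest and AllPrep replicate 1 lay inside the TRIzol range, with a log2 fold change of 0.24 (SE 0.13, adjusted p = 0.29 in edgeR). Shank2, which takes part in NMDA receptor and metabotropic receptor complexes, had 161, 183 and 236 CPM in AllPrep, against 137, 153 and 185 CPM in TRIzol. Its groups overlapped, and the log2 fold change was 0.32 (SE 0.17, adjusted p = 0.27), with a 95% interval from limma-trend of -0.07 to 0.70. Shank3 had 193, 246 and 207 CPM in AllPrep, against 165, 155 and 253 CPM in TRIzol. TRIzol replicate 3 was the highest of the 6 libraries, and the log2 fold change of 0.21 (SE 0.19, adjusted p = 0.53) was about as large as its error. With transcript length and GC trends removed, the log2 fold changes were -0.065 for Shank1, 0.063 for Shank2 and 0.012 for Shank3.

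Homer genes varied more among TRIzol libraries than between the methods. Homer1, the main family member of forebrain synapses, had 169, 202 and 184 CPM in AllPrep, against 222, 170 and 131 CPM in TRIzol. The highest and the lowest of the 6 values were both TRIzol libraries. Homer2 had 64.3, 74.4 and 90.7 CPM in AllPrep, against 48.2, 59.95 and 88.9 CPM in TRIzol, and Homer3, known from cerebellar Purkinje cells, had 5.78, 4.95 and 7.77 CPM in AllPrep, against 4.07, 4.52 and 9.42 CPM in TRIzol. Both were lowest in TRIzol replicate 1, the library where Homer1 was highest. The log2 fold changes were 0.12 (SE 0.18), 0.26 (SE 0.23) and 0.074 (SE 0.335) for Homer1, Homer2 and Homer3, and none passed in edgeR (adjusted p = 0.72, 0.51 and 0.91). The 95% interval from limma-trend for Homer3, -0.60 to 0.91, was the widest among the members. Without TRIzol replicate 3 the value for Homer1 was -0.048, and the value for Homer3 was -0.13, -0.14 and -0.10 without AllPrep replicate 3, TRIzol replicate 1 and TRIzol replicate 2. Homer2 had a log2 fold change of -0.033 with transcript length and GC trends removed.

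**Figure D2:**
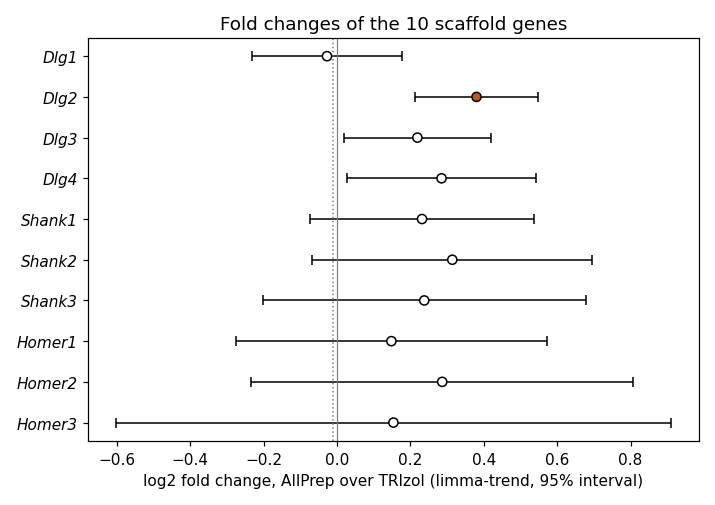
Log2 fold change of AllPrep over TRIzol for the 10 scaffold genes from limma-trend, with 95% intervals; the filled point passed edgeR's test and the dotted line marks the median of all tested genes, -0.01. The interval of Dlg2 runs from 0.21 to 0.55, and the intervals of the Shank and Homer genes include 0.

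Summed by family, Dlg levels were higher in each AllPrep library, and Shank and Homer levels overlapped. The Dlg sum includes Dlg1, whose own log2 fold change was -0.029 in edgeR. Of all tested genes, taken singly, 13.4% had every AllPrep library above every TRIzol library. Summed Dlg levels were 1536, 1662 and 1694 CPM in AllPrep, against 1494, 1363 and 1325 CPM in TRIzol (ratio of means 1.17). All AllPrep libraries lay above all TRIzol libraries, which gives p = 0.1 in an exact permutation test, two-sided, the smallest that 3 against 3 libraries allow (0.2 adjusted over 3 families). Summed Shank levels were 751, 892 and 996 CPM in AllPrep, against 674, 734 and 865 CPM in TRIzol. Summed Homer levels were 239, 281 and 283 CPM in AllPrep, against 274, 235 and 230 CPM in TRIzol. For both families the groups overlapped (exact permutation p = 0.2, and 0.2 adjusted over 3 families).

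Within the Dlg family the balance between Dlg1 and Dlg2 differed between the methods in every library, without passing a test. Dlg1 took 12.6%, 12.5% and 10.8% of the family counts in AllPrep, against 14.5%, 15.3% and 14.0% in TRIzol. Dlg2 took 30.7%, 28.9% and 29.5% in AllPrep, against 26.0%, 28.6% and 27.5% in TRIzol. These were the 2 of 10 shares whose groups did not overlap, and each gave p = 0.1 in the exact permutation test, two-sided, which is the smallest possible, and 0.5 adjusted over the 10 shares. Counted as a ratio in the same library, the log2 of Dlg1 over Dlg2 was -1.28, -1.21 and -1.44 in AllPrep and -0.84, -0.90 and -0.97 in TRIzol. The log2 of Dlg1 over Dlg4 was also lower in each AllPrep library, at -1.79, -1.87 and -2.08, against -1.68, -1.48 and -1.64 in TRIzol. Of 12 paralog ratios in the 3 families these were the 2 whose groups did not overlap. In CPM, 13.4% of all tested genes had every AllPrep library above every TRIzol library and 20.6% below. Those values are for single genes. Shares and ratios of other genes were not examined, so how often shares or ratios separate in these data is not known. A ratio within a library does not depend on the scaling between libraries, and it cannot show which paralog changed. The ratios themselves were not tested. Dlg4 held 43.7%, 45.7% and 45.7% of the family in AllPrep, against 46.6%, 42.5% and 43.7% in TRIzol, and Dlg3 13.0% to 14.0% in AllPrep and 12.9% to 14.8% in TRIzol. The 95% Wilson intervals of single shares reach at most 0.954 percentage points to either side, and cover counting error only. Those of the Dlg2 share overlapped between AllPrep replicate 2 (28.5% to 29.2%) and TRIzol replicate 2 (28.2% to 29.0%), so the gap between the groups was narrow. Among small counts 64.2% to 70.9% were even numbers, by library. The intervals treat counts as independent and do not allow for this, so they may be too narrow.

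Shank shares overlapped between the methods. Shank1 held 53.5% ± 1.86 of the family counts in AllPrep and 54.2% ± 4.38 in TRIzol (SD, n = 3 each), Shank2 held 21.8% ± 1.65 in AllPrep and 20.9% ± 0.57 in TRIzol, and Shank3 24.7% ± 3.51 in AllPrep and 24.9% ± 4.04 in TRIzol. The Shank3 share was lowest in AllPrep replicate 3, at 20.8%, and highest in TRIzol replicate 3, at 29.2%. None of the 3 Shank shares differed beyond the spread (exact permutation p = 1.0, 0.5 and 0.9, two-sided).

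Homer composition spread widely among TRIzol libraries. Homer1 took 70.7%, 71.7% and 65.2% of the family counts in AllPrep, against 80.9%, 72.5% and 57.2% in TRIzol. Homer2 took 26.9%, 26.5% and 32.1% in AllPrep, against 17.6%, 25.5% and 38.7% in TRIzol. All 3 AllPrep values lay inside the TRIzol range for both genes. The SD of the Homer2 share was 3.12 percentage points in AllPrep and 10.7 in TRIzol. For Homer1 a difference of means of -1.01 percentage points was not distinguishable from 0 (exact permutation p = 0.8, two-sided). The log2 ratio of Homer1 to Homer2 counts was 1.39, 1.44 and 1.02 in AllPrep, against 2.20, 1.51 and 0.56 in TRIzol. Homer3 held 2.31% ± 0.50 of the family in AllPrep and 2.504% ± 1.40 in TRIzol.

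**Figure D3:**
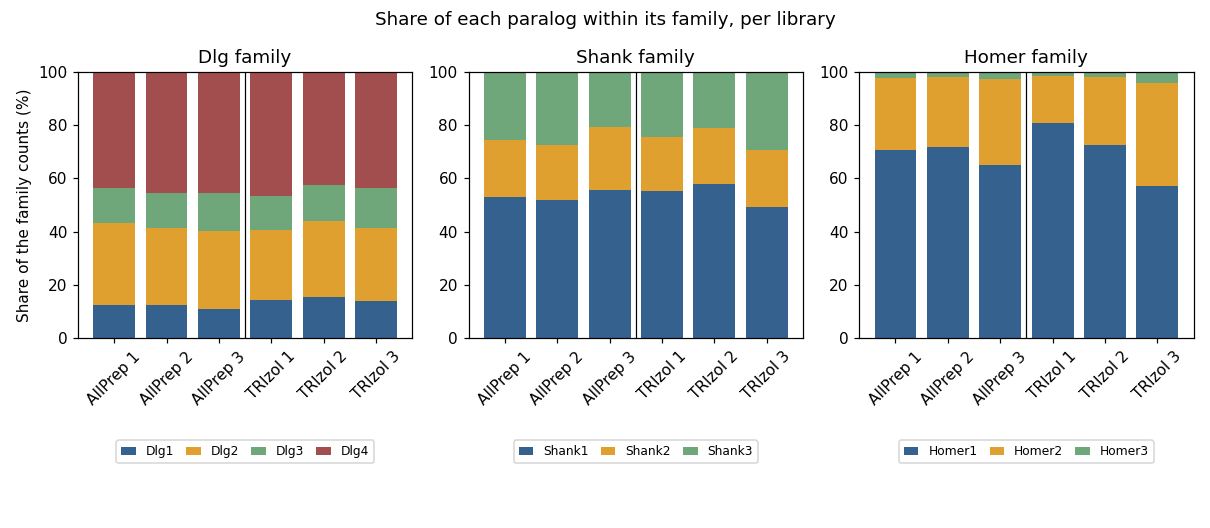
Share of each paralog in the counts of its family, in percent, for each library, with the 3 AllPrep libraries left of the line and the 3 TRIzol libraries right of it. The Dlg1 segment is smaller in each AllPrep library (10.8% to 12.6%) than in any TRIzol library (14.0% to 15.3%), and the Homer1 segment ranges from 57.2% to 80.9% among TRIzol libraries.

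Compared per length of the longest annotated transcript, Dlg4 was the most and Homer3 the least abundant scaffold mRNA with either method. On the scale of CPM per kilobase the levels in AllPrep were 116 ± 8.73 for Dlg4, 61.9 ± 1.83 for Dlg2, 48.0 ± 7.94 for Shank1, 43.4 ± 3.85 for Dlg3, 32.4 ± 2.85 for Homer1, 31.7 ± 1.95 for Dlg1, 29.3 ± 3.75 for Shank3, 21.5 ± 4.30 for Shank2, 6.96 ± 1.21 for Homer2 and 2.37 ± 0.56 for Homer3 (SD, n = 3). Neighbours in this order whose library ranges overlapped were Shank1 with Dlg3, Homer1 with Dlg1, Dlg1 with Shank3 and Shank3 with Shank2. In TRIzol the order of levels was the same but for Dlg1, at 33.2 ± 2.65 CPM per kilobase, and Homer1, at 30.5 ± 7.95, which changed places and overlapped. Neighbours that overlapped there were Shank1 with Dlg3, Dlg1 with Homer1 and Homer1 with Shank3. The order depends on the length used. Per kilobase of all annotated exons Dlg2 came after Dlg4, Shank1 and Dlg3, at 29.7 ± 0.88 in AllPrep and 23.4 ± 0.86 in TRIzol, since its exon union of 16280 bases far exceeds its longest transcript of 7813 bases.

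Most members have long transcripts. The longest annotated transcripts ran from 2608 bases for Homer3 to 10982 bases for Homer2, against a median of 3307 bases over all tested genes. Homer3 was the one member below that median. GC content ran from 36.9% for Homer1 to 62.4% for Shank3, around a median of 49.7% over tested genes. The Dlg2 gene spans 1973 kilobases, while Dlg4 spans 30.6 kilobases and Homer3 11.5 kilobases, against a median of 23.9 kilobases. Homer3 shares 874 exonic bases with Ddx49 on the opposite strand, and Ddx49 stood at 14.6 to 17.5 CPM in AllPrep and 18.0 to 19.0 CPM in TRIzol; without a known strand setting their reads cannot be told apart. Shank1 shares 339 bases with 1700008O03Rik on the opposite strand, which had at most 1.70 CPM in any library.

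Across libraries the members did not form one block. The measure of likeness is the root mean square difference between the log2(CPM + 0.5) profiles of a pair of genes over 6 libraries, each centred on its own mean. The closest pairs were Dlg3 with Shank1 (0.0969), Dlg3 with Dlg4 (0.0976), Shank1 with Shank2 (0.0997) and Dlg2 with Dlg4 (0.104). The most distant pairs were both inside the Homer family, Homer1 with Homer3 (0.598) and Homer1 with Homer2 (0.495). Shank2 and Homer2 were close across families (0.132). In AllPrep replicates 2 and 3, 9 of 10 members were above their own means in each library; in AllPrep replicate 1 that was so for Dlg2 alone. In TRIzol replicates 1, 2 and 3 it held for 3, 1 and 4 members.

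Markers of brain regions also differed among libraries, and TRIzol replicate 3 stood apart. The summed level of 6 thalamic markers was 359, 384 and 197 CPM in AllPrep and 177, 272 and 892 CPM in TRIzol, none of them at 0. The 7 hippocampal markers summed to 494, 378 and 458 CPM in AllPrep and 255, 247 and 537 CPM in TRIzol. The 9 markers of striatal projection neurons ran the other way in that library, at 1131, 1281 and 426 CPM in AllPrep and 830, 428 and 188 CPM in TRIzol. Of the TRIzol libraries, replicate 3 had the highest values of Dlg3, Homer2, Homer3 and the 3 Shank genes and the lowest of Dlg1, Dlg2, Dlg4 and Homer1, though for Dlg4 and Shank1 it was close to replicate 2. The 8 oligodendrocyte markers summed to 5301, 5644 and 3203 CPM in AllPrep and 7066, 7113 and 6050 CPM in TRIzol, and AllPrep replicate 3, the lowest, had the highest values of Dlg2, Dlg3, Dlg4, Shank1, Shank2 and Homer2. None of the markers of these 4 lists passed in edgeR. Other lists held calls, all higher in AllPrep. The 8 hypothalamic markers summed to 35.3, 41.9 and 18.3 CPM in AllPrep and 6.70, 4.59 and 5.33 CPM in TRIzol, with 3 called and Hcrt at 0 in TRIzol replicates 1 and 3. The 7 ependymal markers summed to 25.2 to 35.6 CPM in AllPrep and 8.09 to 17.6 CPM in TRIzol, with 3 called. The 7 astrocyte markers summed to 4085 to 4457 CPM in AllPrep and 3318 to 3866 CPM in TRIzol, with 1 called. Most of that sum was Slc1a2, which like Slc1a3 was higher in every AllPrep library. Aldh1l1 and S100b were lower in every AllPrep library, at 58.9 to 63.1 and 84.0 to 109 CPM, against 63.5 to 71.2 and 113 to 183 CPM in TRIzol. Gfap, Aqp4 and Gja1 overlapped. The part of tissue makeup in the scaffold values was not tested. Without TRIzol replicate 3 the log2 fold changes of Shank3, Homer2 and Homer3 were 0.47, 0.54 and 0.57, none of which passed in edgeR (adjusted p = 0.089, 0.12 and 0.18).

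**Figure D4:**
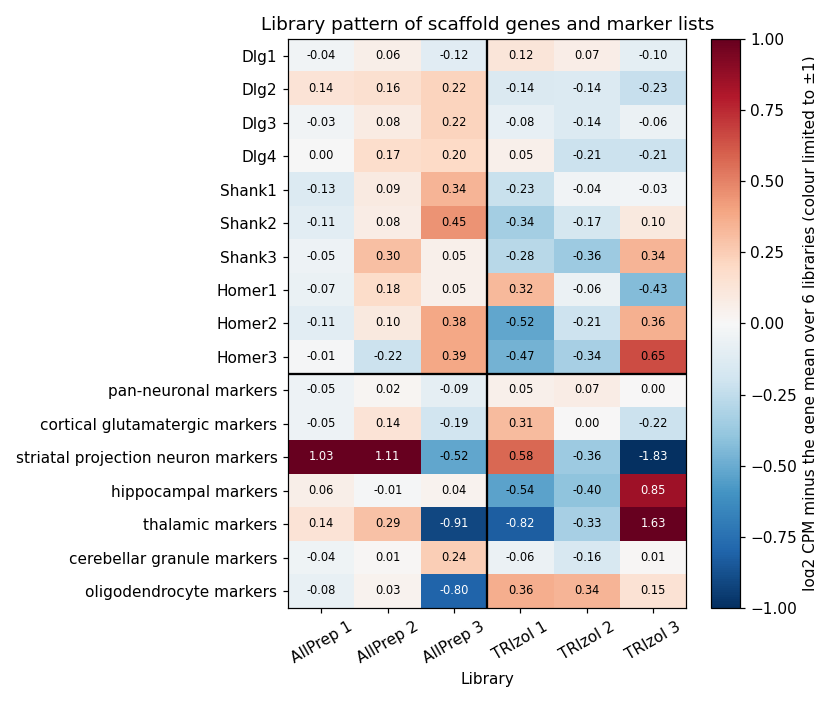
Deviation of log2(CPM + 0.5) from the mean over 6 libraries for each scaffold gene (above the line) and averaged over marker lists (below it). AllPrep libraries are left and TRIzol libraries right. The lists drawn are pan-neuronal, cortical glutamatergic, striatal projection neuron, hippocampal, thalamic, cerebellar granule and oligodendrocyte. Choroid plexus, ependymal and hypothalamic markers, not drawn, averaged above 0 in each AllPrep library and below 0 in each TRIzol library. Astrocyte, microglia, endothelial and Purkinje markers are not drawn either. Dlg2 is positive in 3 of 3 AllPrep libraries and negative in 3 of 3 TRIzol libraries, and Homer1 and Homer3 have opposite signs in TRIzol replicates 1 and 3, at 0.32 and -0.47 in replicate 1.

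The genes whose library pattern was closest to that of Dlg2, the Dlg gene with the smallest p, were Lmbrd2 (difference 0.0233 over 6 libraries), Slk, a serine/threonine kinase (0.0235), and Galnt2, which starts mucin-type glycosylation (0.0322), among 9947 genes compared. Lmbrd2 had 145, 144 and 158 CPM in AllPrep, against 121, 122 and 113 CPM in TRIzol. For Shank2 they were Fgf13, an intracellular modulator of sodium channels (0.0435), Plch2, a phospholipase C (0.0451), and Ppm1e, a phosphatase (0.0557). For Homer2 they were Raver2 (0.0623), Nt5dc3 (0.0809) and Hdac9, a histone deacetylase (0.0881). With so many genes and 6 libraries, some close patterns arise for any gene.

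Lists of receptors and other partners of these scaffolds, of related scaffolds and of inhibitory synapses held mostly positive values and few calls. Of 94 different genes in 7 lists, 6 rose, none fell and 80 had positive values, with a median log2 fold change of 0.18. The 6 make up 6.38% of these genes, against 2.52% of all tested genes called higher. The lists were drawn up with earlier results of these data known, so they are no independent evidence. With length and GC trends removed none of the 7 lists held a call in edgeR. DESeq2 called 2001 of 16443 genes in all, 1248 higher and 753 lower. It called more genes than edgeR in each list, and both are given list by list. At an unadjusted p below 0.05 in edgeR stood 2 of 7 NMDA receptor subunits and 6 of 12 listed Homer ligands. It was so for 6 of 20 linkers and enzymes and 7 of 20 other scaffolds, with Pick1 lower in AllPrep. Over all tested genes the share was 25.8%.

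Among NMDA receptor subunits, the cargo of Dlg proteins, 1 of 7 rose, none fell and the other 6 did not pass, around a median of 0.094 on the log2 scale. The median was -0.028 with length and GC trends removed, and DESeq2 called 2. Grin2b, which encodes a subunit that ends in a PDZ ligand, had 604, 682 and 993 CPM in AllPrep, against 310, 268 and 383 CPM in TRIzol (log2 fold change 1.28, adjusted p = 0.032 in edgeR). The obligatory subunit gene Grin1 had 228, 245 and 252 CPM in AllPrep and 223, 262 and 249 CPM in TRIzol, with overlapping groups and a log2 fold change of 0.019, or -0.017 with column totals in place of TMM. Grin3a, at 0.71 on the same scale, missed the threshold (adjusted p = 0.0815 in edgeR). Without a single library, Grin2b passed in 1 of 6 fits, that without TRIzol replicate 3 (adjusted p = 0.0477 in edgeR); in the others the adjusted p was 0.0596 to 0.0826. With length and GC trends removed it was 0.0536.

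Of 14 AMPA receptor and auxiliary subunit genes none passed in edgeR, with a median log2 fold change of 0.26 (0.236 with length and GC trends removed). At an unadjusted p below 0.05 in edgeR stood 6 of them (42.9%, against 25.8% of all tested genes). Among these Gria4 was lower (log2 fold change -0.244), with every AllPrep library below every TRIzol library, and the others were higher. DESeq2 called 4 higher, and edgeR without the filter on low counts called 1, Cacng8 (adjusted p = 0.0421). The smallest p belonged to Cacng8, an auxiliary subunit that Dlg4 holds at the synapse (log2 fold change 0.60, adjusted p = 0.053), then to Shisa7 (0.395, adjusted p = 0.063 in edgeR). The abundant Gria1 and Gria2 had 0.51 and 0.14, and neither passed in edgeR. Among 13 adhesion genes of excitatory synapses none passed in edgeR either (median 0.18, or 0.101 with length and GC trends removed). There 4 (30.8%) stood at an unadjusted p below 0.05 in edgeR, all higher, and DESeq2 called 1, Nlgn1 (adjusted p = 0.0165). Nlgn1, a neuroligin that binds Dlg4, had 0.46 (adjusted p = 0.080 in edgeR), Nlgn2 0.22, Lrrc4b 0.21 and Adam22 0.18. Nlgn2 (unadjusted p = 0.0349 in edgeR) was also listed with the inhibitory synapse genes and is counted in both lists.

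Of 12 genes listed as ligands of Homer, 1 rose, none fell and 11 did not pass in edgeR (median 0.34). The median was 0.089 with length and GC trends removed, and DESeq2 called 5 higher. Grm5, the metabotropic receptor that Homer links to Shank, had 292, 298 and 367 CPM in AllPrep, against 217, 193 and 215 CPM in TRIzol. Every AllPrep library was higher, with a log2 fold change of 0.65 (SE 0.11, adjusted p = 0.033 in edgeR). Itpr1, the inositol trisphosphate receptor, overlapped between the methods at 649 to 849 CPM in AllPrep and 518 to 810 CPM in TRIzol. Agap2, at 0.45, and Dnm3, at 0.53, missed the threshold (adjusted p = 0.0895 and 0.0635 in edgeR).

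Among 20 linkers and enzymes of the postsynaptic density, 2 rose, none fell and 18 did not pass in edgeR (median 0.15, or 0.114 with length and GC trends removed), and all 20 values were positive. DESeq2 called 4 higher. Cnksr2, a scaffold that binds Dlg proteins, had 248, 296 and 334 CPM in AllPrep, against 189, 195 and 203 CPM in TRIzol (log2 fold change 0.62, adjusted p = 0.039 in edgeR). Sipa1l1, a Rap GTPase-activating protein of spines, had 447, 484 and 473 CPM in AllPrep, against 304, 385 and 305 CPM in TRIzol (0.54, adjusted p = 0.045). The kinase genes Camk2a and Camk2b had 0.28 and 0.14 and did not pass.

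Of 20 other guanylate kinase and PDZ scaffolds 2 rose, none fell and 18 did not pass in edgeR (median 0.14), with 14 positive and 6 negative values. The median was 0.049 with length and GC trends removed, and DESeq2 called 4 higher and 1 lower. Cask, which works on both sides of the synapse, had 106, 103 and 98.0 CPM in AllPrep, against 87.0, 82.1 and 76.6 CPM in TRIzol (log2 fold change 0.36, adjusted p = 0.048 in edgeR), and Magi3 had 89.3, 80.2 and 90.3 CPM in AllPrep, against 56.7, 71.6 and 60.9 CPM in TRIzol (0.49, adjusted p = 0.042). Neither passed in edgeR with column totals in place of TMM. Mpp2 and Apba1 had 0.20 and 0.081. For inhibitory synapses, which use a separate scaffold built on gephyrin, 0 of 9 genes passed in edgeR. Their median was 0.20, or 0.114 with length and GC trends removed. At an unadjusted p below 0.05 in edgeR stood 5 (55.6%, against 25.8% of all tested genes), all higher, and DESeq2 called 3 higher. Nlgn2, also counted among the adhesion genes, was among those 5. The calls for Grm5, Cnksr2, Sipa1l1, Cask and Magi3 were lost in each of 6 fits without a single library, with adjusted p-values of 0.0539 to 0.142, and with length and GC trends removed, with 0.0651 to 0.416. Without a single library the log2 fold changes were 0.53 to 0.73 for Grm5, 0.51 to 0.74 for Cnksr2, 0.48 to 0.65 for Sipa1l1, 0.31 to 0.41 for Cask and 0.43 to 0.59 for Magi3. With length and GC trends removed they were 0.48 for Grm5, 0.55 for Cnksr2, 0.31 for Sipa1l1, 0.14 for Cask and 0.36 for Magi3.

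**Figure D5:**
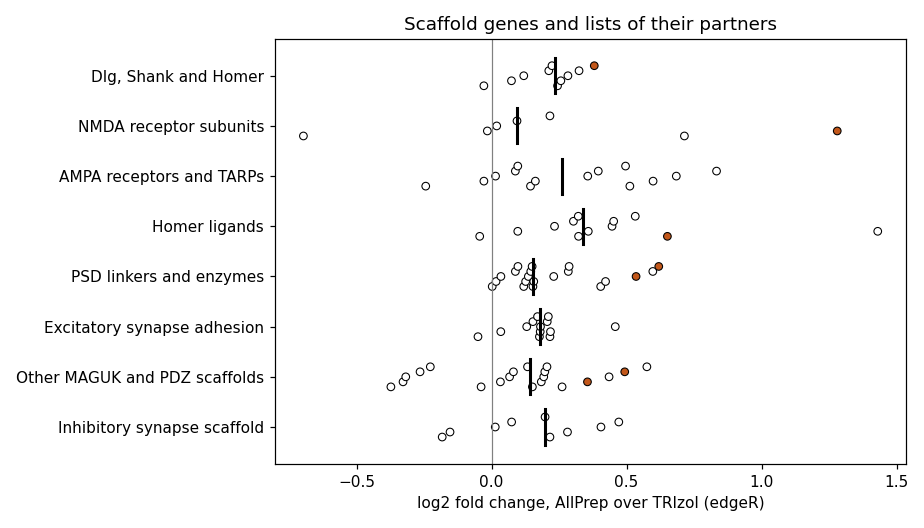
Log2 fold change of AllPrep over TRIzol in edgeR for the 10 scaffold genes (top) and 7 lists of partners, related scaffolds and inhibitory synapse genes; filled points passed the test and thick bars are medians. The median of the scaffold genes is 0.23 and the medians of the lists lie between 0.094 and 0.34.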

How the data were processed

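One deposited table holds the authors' unnormalized read counts for each gene in 6 libraries. Per the submitters' processing notes, the tools were STAR 2.7.9a and featureCounts on GRCm39, with cutadapt, limma 3.60.6 and FastQC 0.11.9. The strand setting is not given. Of 22692 rows, 108 repeats of an Ensembl ID with identical counts were removed. Samples were grouped by title. The test was edgeR's (version 4.0.16, under R 4.3.3; filterByExpr, TMM, quasi-likelihood F-test, no replicate block, adjusted p below 0.05, two-sided); SE is the log2 fold change divided by the square root of F. Intervals came from limma-trend (limma 3.58.1, prior count 2). Shares and sums were compared by exact permutation. Alternatives were DESeq2 1.42.0, other scalings, no filter, halved counts, length and GC trends removed (mgcv 1.9.3), a replicate block and each library left out. Transcript lengths came from GENCODE vM21, which is on another build. On simulated data for AllPrep against TRIzol with 16325 genes, 32.8% of 1.5-fold, 68.7% of 2-fold and 90.9% of 4-fold changes were recovered, and 7.91% of calls were unchanged genes.

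Members, lists and tests were chosen with earlier results of these data known. Named genes were the members, in each list the 2 with the smallest p, the 2 most abundant and any that passed, and, for the member with the smallest p in each family, the 3 tested genes of at least 10 CPM with the closest pattern, gene models without a name left out. Some genes that this rule names are not reported here.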

Additional observations from a re-analysis of the deposited data

How the results depend on the processing

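The count of genes called, 621, was 2001 with DESeq2, 278 with length and GC trends removed and 236 with the replicate block. Leaving out 1 library gave 2 to 205, fewest without TRIzol replicate 2 and most without TRIzol replicate 3. Of the 621 genes 66.3% were higher in AllPrep, against 343 higher and 305 lower with column totals alone and 139 higher and 139 lower with length and GC trends removed. The count of members called, 1, was 0 with length and GC trends removed, 0 with the replicate block (Dlg2 adjusted p = 0.088 in edgeR), and 0 in each of the 6 fits without a library; it was 1 with DESeq2, DESeq2 size factors, column totals, no filter, limma-trend and halved counts. In deviations from group means, replicates 1, 2 and 3 correlated with the same number of the other method at -0.0916, -0.0299 and 0.172. Between different numbers the correlations were -0.164 to 0.233. Whether the numbers mark shared animals or batches cannot be told from these values or the labels. With the block the SE was 0.082 for Shank2, 0.097 for Homer2 and 0.184 for Homer3, against 0.166, 0.226 and 0.335 without it. For Dlg2, Dlg3 and Dlg4 the SE was larger with the block. The block changed no sign among members. For shares and sums it could not, since each number occurs once per method and the difference of means stays the same. The block ended the calls of Grm5 (adjusted p = 0.0539 in edgeR), Cnksr2 (0.0557), Sipa1l1 (0.0581), Cask (0.0781) and Magi3 (0.0782), not that of Grin2b (0.0333).

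Signs among values that did not pass turned in some settings. With length and GC trends removed, log2 fold changes were -0.065 for Shank1, -0.033 for Homer2, -0.028 for Grin1, -0.072 for Gria2, -0.051 for Itpr1, -0.059 for Adam22, -0.067 for Apba1 and -0.015 for Hdac9. With column totals Grin1 had -0.017. Without 1 library they ranged from -0.090 to 0.025 for Dlg1, -0.048 to 0.34 for Homer1, -0.14 to 0.57 for Homer3, -0.037 to 0.074 for Grin1, -0.058 to 0.25 for Apba1 and -0.062 to 0.51 for Hdac9. The differences in share then ranged, in percentage points, from -0.836 to 0.103 for Dlg3, -0.176 to 1.87 for Dlg4, -3.17 to 1.11 for Shank1, -2.12 to 1.9 for Shank3, -7.54 to 4.34 for Homer1, -3.64 to 6.93 for Homer2 and -0.704 to 0.607 for Homer3. The cause of these turns was not tested. Differences in the Dlg1, Dlg2 and Shank2 shares and in the 3 family sums kept their sign in all settings run. Dividing by the exon union was chosen after seeing the data. Depth limits Homer3 most, at 148 to 424 counts a library.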
